A study of Mus musculus with 8 samples.

Results

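The 10 genes described here encode surface proteins through which fibroblasts meet leukocytes: the adhesion molecules Icam1 and Vcam1, the B7 family members Cd274, Pdcd1lg2, Cd80, Cd86 and Cd276, the phagocytosis checkpoint Cd47, and the ectoenzymes Entpd1 and Nt5e. They were chosen by gene symbol from 55573 Ensembl genes, and all 10 were found under GENCODE M21 names. Polyadenylated RNA was counted per gene in 8 libraries of mouse colon fibroblasts of the C57BL6/J strain, grown as flat cultures on plastic in Advanced DMEM F12 with serum. The irradiated group held 4 libraries of cells that received APTKA conditioned medium and 3 fractions of 2 Gy, and the non-irradiated group held 4 libraries of cells that received the same conditioned medium and no irradiation. Both were harvested at 72 hours, counted in the irradiated group from the first fraction, and libraries are numbered I to IV in each group. The labels do not spell out APTKA and give no age, and fibroblasts without conditioned medium were not analysed here, so each comparison concerns irradiation on top of that medium. The study's title concerns inflammatory fibroblasts and resistance to treatment before surgery in rectal cancer.

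ICAM-1 and VCAM-1 are held by integrins on leukocytes, and inflammatory signals that act through NF-kB are textbook inducers of both. PD-L1 (Cd274) and PD-L2 (Pdcd1lg2) bind the inhibitory receptor PD-1 on T cells, whereas CD80 and CD86 bind both the activating receptor CD28 and the inhibitory receptor CTLA-4. CD47 restrains phagocytes through SIRP alpha, and CD39 (Entpd1) and CD73 (Nt5e) act in sequence to turn extracellular ATP into adenosine, which dampens immune cells. Stromal cells are known for ICAM-1, VCAM-1, CD47 and CD73, while CD80 and CD86 are classically described on antigen-presenting cells.

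Libraries held 30203137 to 36497990 counts in the irradiated group and 28731227 to 37157216 in the non-irradiated group. The mitochondrial 12S and 16S rRNA genes together took 15130 and 15260 CPM (counts scaled to library size, here to the total count) in irradiated I and II, against 4358 and 5934 in irradiated III and IV and 4178 to 5915 in non-irradiated libraries, so the main results are also given without irradiated I and II. The 10 fibroblast markers summed to 14780 to 16100 CPM in irradiated and 16220 to 19050 CPM in non-irradiated libraries. Of 10 leukocyte markers, 8 were under 1 CPM in both groups. Their sum was 14.2 to 15.4 CPM in irradiated and 12.1 to 15.1 CPM in non-irradiated libraries, and most of it was Cd14 and Cd68. The pan-leukocyte gene Ptprc had no count in any irradiated library and 6 counts in all over the non-irradiated ones. Epithelial markers summed to at most 0.461 CPM in irradiated and 0.794 CPM in non-irradiated libraries. Smooth muscle and pericyte markers summed to 370.4 to 420.5 CPM in irradiated and 399.5 to 432.4 CPM in non-irradiated libraries. Among them Notch3 was called higher, at 96.6 ± 5.03 CPM in irradiated and 80.0 ± 6.30 CPM in non-irradiated libraries (adjusted p = 0.0109 by edgeR), and Actg2 lower, at 291 ± 21.1 CPM in irradiated and 333 ± 10.0 CPM in non-irradiated libraries (adjusted p = 0.0263). Of the fibroblast markers Col1a2 (log2 fold change -0.24, adjusted p = 0.0101) and Vim (-0.14, adjusted p = 0.0462) were called lower. Without irradiated I and II, Notch3, Actg2 and Vim lost their calls (adjusted p = 0.0835, 0.0758 and 0.279). The part of these markers in the results was not tested.

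Among the members, Cd80 and Icam1 were higher and Nt5e and Cd276 lower in irradiated fibroblasts. Cd80 was 1.47-fold and Icam1 1.37-fold higher, and Nt5e was at 0.661 and Cd276 at 0.879 of the non-irradiated level. Cd274, Vcam1 and Cd47 did not pass the test, and Pdcd1lg2, Cd86 and Entpd1 were too low to be tested. Counts were compared with edgeR's quasi-likelihood test over all 15259 genes that passed the low-count filter, and a gene was called at a Benjamini-Hochberg adjusted p under 0.05. Of the 10 members 7 passed that filter, and 2 of these were called higher and 2 lower. Over all genes tested 6.74% were called, 2.59% higher and 4.15% lower. The median log2 fold change was -0.10 over the 7 tested members and 0.00 over all genes tested, and the median absolute log2 fold change was 0.19 and 0.09. Levels here are CPM scaled with TMM factors unless TPM is named, and errors are SD over the 4 libraries of a group. No label tells whether the libraries of a group stem from different mice or dishes, and the spread behind each p-value is that between samples and may be technical. In bulk RNA, fewer cells that express a gene and less RNA per cell cannot be told apart.

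**Figure D1:**
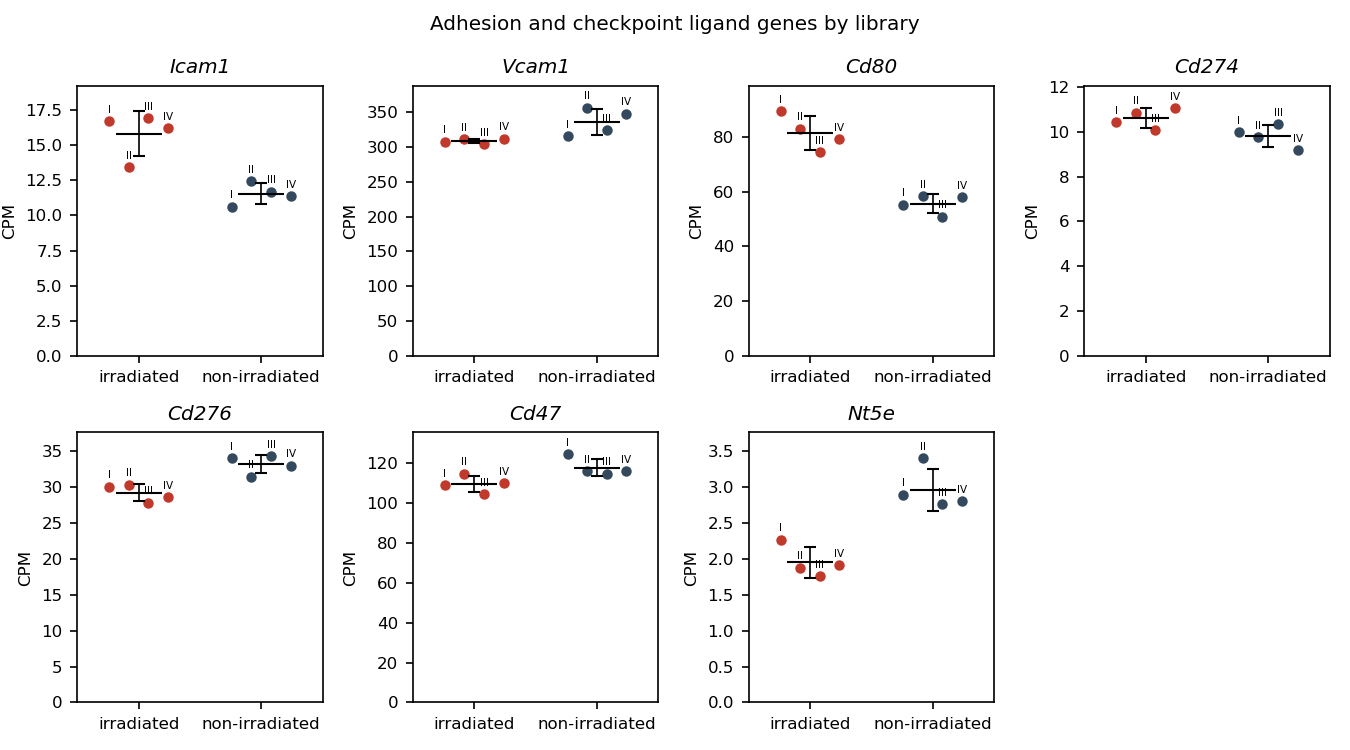
CPM of the 7 tested members in each library (vertical axes start at 0; numerals name the library; black bars are mean and SD of 4 libraries). For Cd80 the irradiated libraries lie between 74.4 and 89.4 CPM and the non-irradiated libraries between 50.9 and 58.4 CPM, while for Cd274 the groups interleave.

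The promoters of both genes that were higher are shown because their transcripts moved the same way, with motif matches in capitals. The windows run from 250 bases before to 50 bases after the RefSeq start on GRCm38.p6, both on the plus strand, at chr9:21015690-21015989 for Icam1 and chr16:38458683-38458982 for Cd80.
Icam1: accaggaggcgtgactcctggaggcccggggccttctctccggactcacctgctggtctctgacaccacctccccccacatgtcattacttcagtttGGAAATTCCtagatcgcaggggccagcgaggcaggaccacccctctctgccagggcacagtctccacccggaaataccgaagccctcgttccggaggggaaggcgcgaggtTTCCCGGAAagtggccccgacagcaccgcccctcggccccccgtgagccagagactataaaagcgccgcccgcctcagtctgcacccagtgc
Cd80: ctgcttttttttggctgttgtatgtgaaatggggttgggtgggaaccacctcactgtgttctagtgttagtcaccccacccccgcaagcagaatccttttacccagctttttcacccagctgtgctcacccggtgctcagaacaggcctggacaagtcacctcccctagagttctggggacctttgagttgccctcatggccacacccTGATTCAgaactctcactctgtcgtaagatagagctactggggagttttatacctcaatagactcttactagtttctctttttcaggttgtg
In the Icam1 window the capitals mark GGAANNTCC, a pattern that binding sites of NF-kB can take, 153 bases before the start, and TTCNNNGAA, a pattern of STAT sites, 42 bases before it. In the Cd80 window they mark TGANTCA, an AP-1 pattern, also 42 bases before the start. Both strands were searched for 5 motifs, and the matches shown do not overlap. GGAANNTCC occurs in 4.26% of the 32851 promoter windows of this length, TTCNNNGAA in 8.30%, and TGANTCA in 7.81%. The motifs were chosen with the promoter sequences in view, so these shares do not measure how unusual the matches are. No match to GAAANNGAA, an interferon response pattern found in 8.56% of windows, or to the p53 half-site consensus, found in 8.36%, lay in either window. The GENCODE gene body of Cd80 begins upstream of its window, at 38455561, so a further start of the gene lies outside it. That of Icam1 begins at 21015985, near the end of its window and after the RefSeq start. The distances given for Icam1 therefore hold for the RefSeq start only. Of the other members, Cd274 had 1 match to GAAANNGAA in its window, Pdcd1lg2, Cd276, Cd47, Entpd1 and Nt5e had no match to any of the 5 motifs, and Vcam1 and Cd86 had no window in the table. A match is a run of letters and was not tested for binding.

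Icam1 encodes the ligand of the leukocyte integrins LFA-1 and Mac-1 (ENSMUSG00000037405, chromosome 9, 21015985 to 21028817, plus strand, protein-coding, GRCm38). It had 16.7, 13.4, 16.9 and 16.2 CPM in irradiated I to IV, against 10.6, 12.5, 11.7 and 11.4 CPM in non-irradiated I to IV. Irradiated II was the lowest of its group, yet every irradiated library lay above every non-irradiated one. Its mean was 15.8 ± 1.63 CPM in irradiated and 11.5 ± 0.752 CPM in non-irradiated libraries (SD, n = 4 each), a log2 fold change of 0.46 (SE 0.08, adjusted p = 0.00387 by edgeR). Without irradiated I and II the log2 fold change was 0.52 (adjusted p = 0.00356). When scaled to exon-union length as TPM without TMM factors, irradiated II at 11.5 TPM fell just under non-irradiated II at 11.6 TPM, so on that scale the groups overlapped. With the longest annotated transcript as the length, irradiated II at 15.6 TPM lay just above non-irradiated II at 15.5 TPM, and the groups did not overlap. An antisense gene, Gm47079, shares 511 bases (11.7%) of the Icam1 exons and had 143 counts in all, against 3649 for Icam1. Since the strand setting of the counting is not given in the sources used here, reads in such shared bases cannot be placed.

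Vcam1 encodes the ligand of the integrin VLA-4 (ENSMUSG00000027962, chromosome 3, 116109949 to 116129688, minus strand). It had 308, 311, 304 and 312 CPM in irradiated I to IV and 316, 356, 325 and 348 CPM in non-irradiated I to IV. The irradiated libraries lay close together and just under the lowest non-irradiated library, and the non-irradiated ones spread more widely. The means of 309 ± 3.54 CPM in irradiated and 336 ± 19.2 CPM in non-irradiated libraries (SD, n = 4 each) gave a log2 fold change of -0.12 with a 95% interval from -0.21 to -0.04 and an adjusted p = 0.0908 by edgeR, which missed the threshold. It passed in 1 alternative, without non-irradiated I (log2 fold change -0.15, adjusted p = 0.039).

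Cd80, which encodes B7-1, had the largest rise among the members in the fit to all 8 libraries (ENSMUSG00000075122, chromosome 16, 38455561 to 38496335, plus strand, with no other annotated gene overlapping it). It had 89.4, 83.0, 74.4 and 79.2 CPM in irradiated I to IV, against 55.2, 58.4, 50.9 and 58.0 CPM in non-irradiated I to IV. The lowest irradiated library stood well above the highest non-irradiated one. Mean levels were 81.5 ± 6.31 CPM in irradiated and 55.6 ± 3.48 CPM in non-irradiated libraries (SD, n = 4 each; log2 fold change 0.55, SE 0.06, 95% interval 0.42 to 0.68, adjusted p = 9.16e-05 by edgeR), and the gene ranked 58th by p-value among all genes tested. Irradiated I and II were the highest 2 libraries, and without them the log2 fold change was 0.46 (adjusted p = 0.00176). In that fit Icam1, at 0.52, rose more than Cd80, and the rises of these genes were not compared by a test. Its partner Cd86 (B7-2), which on antigen-presenting cells usually accompanies CD80, had 1 count in irradiated II, 1 count in non-irradiated II and none in the other 6 libraries. A library without counts allows up to 3, which is 0.0825 to 0.0988 CPM over irradiated and 0.0812 to 0.104 CPM over non-irradiated libraries. This level of Cd80 stood beside almost no Cd86 and almost no Ptprc, Adgre1, Itgam or Cd3e, of which Ptprc had the most counts, 6 in all. The myeloid markers Cd14, at 9.57 ± 0.539 CPM in irradiated and 9.14 ± 0.699 CPM in non-irradiated libraries, Cd68, at 3.75 ± 0.228 CPM in irradiated and 3.42 ± 0.635 CPM in non-irradiated libraries, Csf1r and Lyz2 were detected and not called, and their part in the level of Cd80 was not tested.

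Cd274 encodes PD-L1 (ENSMUSG00000016496, chromosome 19, 29367455 to 29388095, plus strand). It had 10.4, 10.9, 10.1 and 11.1 CPM in irradiated I to IV and 10.0, 9.75, 10.3 and 9.19 CPM in non-irradiated I to IV. The groups overlapped, with irradiated III under non-irradiated III. The means were 10.6 ± 0.442 CPM in irradiated and 9.82 ± 0.482 CPM in non-irradiated libraries (SD, n = 4 each; log2 fold change 0.11, adjusted p = 0.378 by edgeR). The 95% interval of the log2 fold change ran from -0.03 to 0.25. The test does not show that the level was the same. An antisense gene, AC119228.1, shares 14.1% of the Cd274 exon bases and had 46 counts in all, against 2707 for Cd274. Pdcd1lg2, the PD-L2 gene that lies beside Cd274 on chromosome 19 (29410919 to 29471161), had 1 count in irradiated I and none in the other 7 libraries, so no fold change is given.

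Cd276 encodes B7-H3, a B7 family protein found on many stromal and tumour cells (ENSMUSG00000035914, chromosome 9, 58524298 to 58555437, minus strand). It had 30.1, 30.4, 27.8 and 28.6 CPM in irradiated I to IV, against 34.1, 31.5, 34.3 and 33.0 CPM in non-irradiated I to IV. Every irradiated library was under every non-irradiated one, by a narrow margin. The mean was 29.2 ± 1.20 CPM in irradiated and 33.2 ± 1.29 CPM in non-irradiated libraries (SD, n = 4 each; log2 fold change -0.19, SE 0.05, adjusted p = 0.0337 by edgeR). That call was lost without any 1 of irradiated I to IV or non-irradiated I, III or IV, with adjusted p up to 0.108, and without both irradiated I and II (log2 fold change -0.24, adjusted p = 0.0635). Gm10657, annotated on the other strand, shares 11.4% of the Cd276 exon bases and had 48 counts in all, against 8257 for Cd276.

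Cd47 (ENSMUSG00000055447, chromosome 16, 49800533 to 49915010, plus strand) had 109, 115, 104 and 110.0 CPM in irradiated I to IV and 124, 116, 115 and 116 CPM in non-irradiated I to IV. The highest irradiated library, at 114.678 CPM, and the lowest non-irradiated library, at 114.688 CPM, all but met. The means were 109 ± 4.17 CPM in irradiated and 118 ± 4.44 CPM in non-irradiated libraries (SD, n = 4 each; log2 fold change -0.10, 95% interval -0.19 to -0.01, adjusted p = 0.167 by edgeR), and the gene was not called under any alternative. Counting Cd47, the groups did not overlap for 6 of the 7 tested members, against 14.2% of all genes tested.

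Nt5e, the CD73 gene, was lower in irradiated fibroblasts at a low level (ENSMUSG00000032420, chromosome 9, 88327197 to 88372092, plus strand). It had 2.27, 1.88, 1.76 and 1.91 CPM in irradiated I to IV, from 82, 62, 64 and 58 counts. In non-irradiated I to IV it had 2.89, 3.40, 2.76 and 2.80 CPM, from 83, 107, 102 and 89 counts. No irradiated library reached the lowest non-irradiated one. The mean was 1.95 ± 0.218 CPM in irradiated and 2.96 ± 0.295 CPM in non-irradiated libraries (SD, n = 4 each; log2 fold change -0.60, SE 0.13, adjusted p = 0.0118 by edgeR), and -0.69 without irradiated I and II (adjusted p = 0.0384). Entpd1, the CD39 gene that acts one step before it (ENSMUSG00000048120, chromosome 19, 40612366 to 40741602), had 4, 2, 4 and 6 counts in irradiated I to IV and 2, 6, 6 and 6 counts in non-irradiated I to IV. Its mean of 0.120 ± 0.057 CPM in irradiated and 0.153 ± 0.0569 CPM in non-irradiated libraries did not pass an exact two-sided permutation test over the 4 and 4 libraries (p = 0.4, where the smallest possible p is 0.0286).

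**Figure D2:**
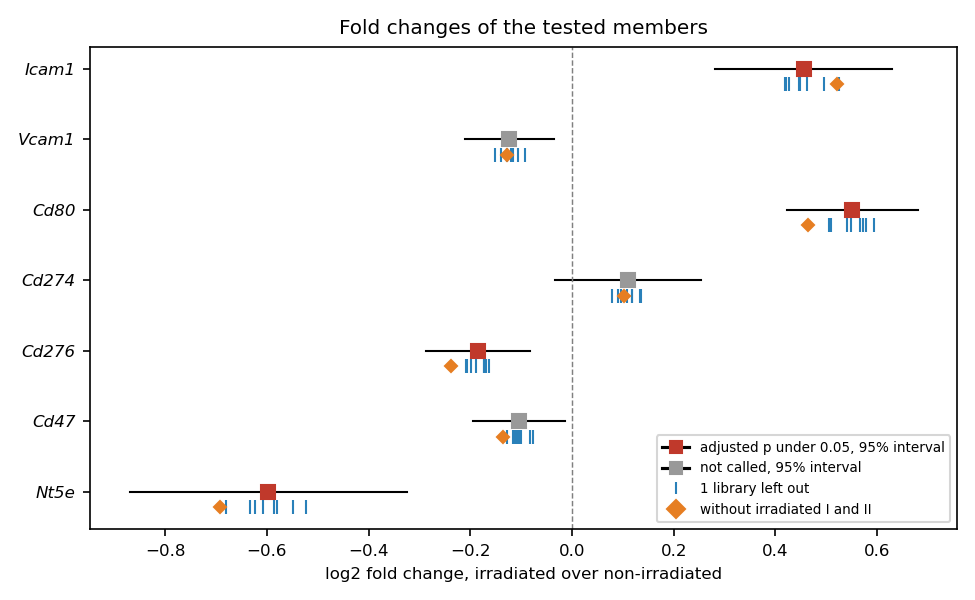
Log2 fold change of irradiated over non-irradiated libraries for the 7 tested members (squares with 95% intervals), with fits that leave out 1 library (ticks) and without irradiated I and II (diamonds). Icam1 at 0.46 and Cd80 at 0.55 lie right of 0 in every fit drawn, Nt5e at -0.60 and Cd276 at -0.19 lie left of it, and the interval of Cd274 spans 0.

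To compare levels between genes, counts were divided by the length of each gene's exon union and scaled to the same total in every library (TPM). In irradiated libraries the order from high to low was Vcam1 (134 ± 3.90 TPM), Cd80 (84.7 ± 6.13), Cd47 (67.2 ± 2.29), Cd276 (30.7 ± 0.927), Icam1 (14.0 ± 1.67), Cd274 (11.3 ± 0.600) and Nt5e (0.874 ± 0.0986 TPM; SD, n = 4), followed by Entpd1, Pdcd1lg2 and Cd86 at 0.141 TPM or less in each library. In non-irradiated libraries it was Vcam1 (152 ± 10.7 TPM), Cd47 (75.4 ± 4.09), Cd80 (60.4 ± 5.08), Cd276 (36.5 ± 1.21), Cd274 (10.9 ± 0.406), Icam1 (10.6 ± 0.715) and Nt5e (1.39 ± 0.157 TPM; SD, n = 4). Cd80 stood above Cd47 in irradiated libraries and below it in non-irradiated ones, and within each group the ranges of these neighbours did not overlap. Icam1 and Cd274 overlapped in both groups. In irradiated libraries Pdcd1lg2, at 0.054 TPM or less, overlapped with both Entpd1 and Cd86. Entpd1, at 0.0405 to 0.141 TPM, lay above Cd86, at 0.0309 TPM or less, in that group. In non-irradiated libraries Entpd1, at 0.0509 to 0.139 TPM, likewise lay above Cd86, at 0.0353 TPM or less. Cd86 overlapped with Pdcd1lg2, which had no count in that group. These ranges rest on very few counts and leave out counting error, so they do not settle the order of Entpd1, Pdcd1lg2 and Cd86. With the longest annotated transcript as the length, Icam1 stood above Cd274 in both groups without overlap, and Cd80 and Cd47 kept their places.

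**Figure D3:**
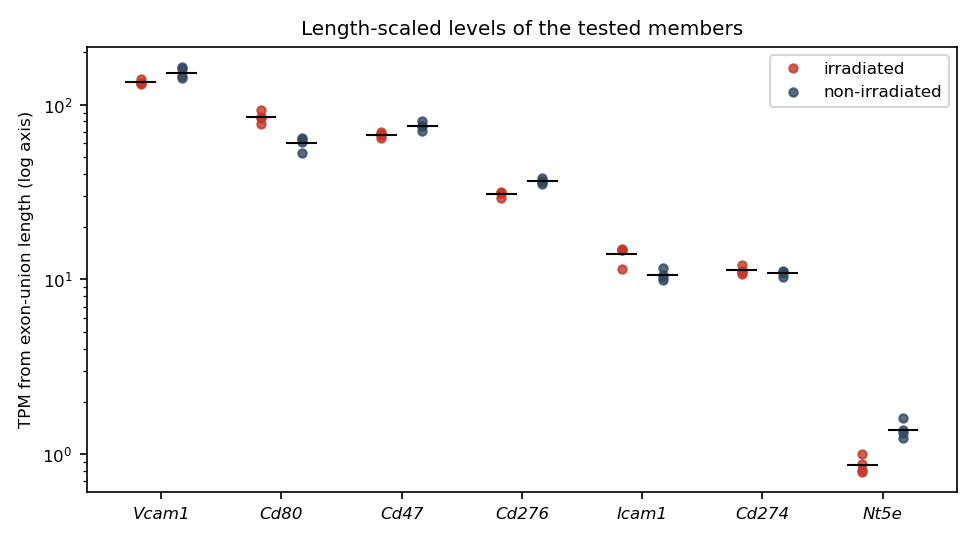
TPM of the 7 tested members by library on a log axis (points are libraries, bars are group means). Cd80 at 84.7 TPM stands above Cd47 at 67.2 TPM in irradiated libraries, and at 60.4 TPM below Cd47 at 75.4 TPM in non-irradiated ones.

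Partners of these proteins were taken from 7 lists with 107 genes, of which 79 passed the low-count filter. Of the 79, 1 was called higher and 8 lower by edgeR, beside 2.59% and 4.15% of all genes tested. Where calls by DESeq2 are given below, DESeq2 called more genes over all, 537 higher and 776 lower, against 395 and 634 by edgeR. Limma-voom called 373 higher and 614 lower. The lists hold genes of known role around the members, and their shared direction was not tested.

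No other adhesion ligand was called beside Icam1. Of 15 tested genes for other adhesion and junction ligands, 0 were called by edgeR, 1 by DESeq2 and 0 by limma-voom. Their median log2 fold change was -0.06, and 5 of them had an unadjusted p under 0.05 by edgeR. Such p-values were common, since Cd47, at an unadjusted p = 0.0271 by edgeR, ranked 2469th among the 15259 genes tested. F11r, a junction molecule, was at 23.4 ± 0.514 CPM in irradiated and 21.4 ± 0.413 CPM in non-irradiated libraries (SD, n = 4 each; adjusted p = 0.118). Cd34, a sialomucin, was at 260.0 ± 16.8 CPM in irradiated and 289.8 ± 14.6 CPM in non-irradiated libraries (adjusted p = 0.0784), and was the 1 gene of this list that DESeq2 called. Cd99l2 had 36.9 ± 1.02 CPM in irradiated and 39.6 ± 0.171 CPM in non-irradiated libraries (adjusted p = 0.134), and Spp1 (osteopontin) 5003 ± 414 CPM in irradiated and 5133 ± 429 CPM in non-irradiated libraries (adjusted p = 0.80). Of 5 tested integrin subunits that form receptors of ICAM-1 or VCAM-1, 1 was called lower by edgeR, 2 by DESeq2 and 0 by limma-voom. The gene called by edgeR was Itgb7, the beta 7 subunit, at 1.60 ± 0.121 CPM in irradiated and 2.40 ± 0.539 CPM in non-irradiated libraries (log2 fold change -0.58, adjusted p = 0.0499 by edgeR). That call survived 1 of 8 fits with a single library removed, and was lost with RLE scaling (adjusted p = 0.0505), with limma-voom (0.0659) and without irradiated I and II (0.262). Itga4, the alpha 4 subunit, was at 3.95 ± 0.403 CPM in irradiated and 5.29 ± 1.05 CPM in non-irradiated libraries (adjusted p = 0.0791 by edgeR and 0.0421 by DESeq2), and Itgb2, the leukocyte beta 2 subunit, at 4.36 ± 0.367 CPM in irradiated and 5.56 ± 0.806 CPM in non-irradiated libraries (adjusted p = 0.0765). Itgb1, which pairs with many alpha chains, was at 914 ± 14.8 CPM in irradiated and 939 ± 32.0 CPM in non-irradiated libraries (adjusted p = 0.595).

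Among 15 tested ligands of other T and NK cell receptors 2 were called, both lower. The median log2 fold change of the list was -0.09. Pvr (CD155), a ligand of DNAM-1 and TIGIT, had 165, 170.0, 174 and 169.6 CPM in irradiated I to IV and 212, 182, 202 and 183 CPM in non-irradiated I to IV (log2 fold change -0.20, adjusted p = 0.0258 by edgeR). Ulbp1, a ligand of the activating receptor NKG2D, averaged 74.5 ± 3.64 CPM in irradiated and 87.8 ± 8.60 CPM in non-irradiated libraries (log2 fold change -0.24, adjusted p = 0.0384). Each of these calls survived 3 of 8 fits with a single library removed and was lost without irradiated I and II (adjusted p = 0.187 for Pvr and 0.191 for Ulbp1). The call of Ulbp1 was also lost with upper-quartile scaling (adjusted p = 0.057). Icosl, the B7 ligand of ICOS, was at 1.67 ± 0.196 CPM in irradiated and 2.05 ± 0.248 CPM in non-irradiated libraries (adjusted p = 0.254), and Nectin2, a nectin that binds TIGIT, at 121 ± 1.14 CPM in irradiated and 129 ± 7.59 CPM in non-irradiated libraries (adjusted p = 0.254). Of the receptors of B7 ligands, Pdcd1, Ctla4 and Cd28 had no count in any library. Rgmb, which binds PD-L2, was at 123 ± 5.67 CPM in irradiated and 119.6 ± 7.03 CPM in non-irradiated libraries (adjusted p = 0.722).

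In the CD47 axis 1 of 8 tested genes was called. Thbs2, a thrombospondin, averaged 429 ± 47.1 CPM in irradiated and 528 ± 58.6 CPM in non-irradiated libraries (log2 fold change -0.30, adjusted p = 0.0402 by edgeR), the groups overlapped, and the call survived 2 of 8 fits with a single library removed and was lost with a replicate block (adjusted p = 0.0701) and without irradiated I and II (0.219). Qpct, a glutaminyl cyclase, was at 23.4 ± 0.517 CPM in irradiated and 26.8 ± 2.64 CPM in non-irradiated libraries (adjusted p = 0.0975), Cd24a, a ligand of Siglec receptors, at 11.4 ± 0.827 CPM in irradiated and 10.1 ± 0.205 CPM in non-irradiated libraries (adjusted p = 0.148), and Lrp1, the calreticulin receptor, at 1856 ± 60.9 CPM in irradiated and 1937 ± 49.9 CPM in non-irradiated libraries (adjusted p = 0.378).

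Of 16 tested genes of extracellular ATP and adenosine handling 3 were called lower and 1 higher by edgeR. Adora2a, an adenosine receptor, had 2.98, 2.93, 2.81 and 3.09 CPM in irradiated I to IV and 4.08, 4.41, 4.25 and 3.94 CPM in non-irradiated I to IV (log2 fold change -0.50, SE 0.09, adjusted p = 0.00567 by edgeR). Adk, the kinase that removes adenosine inside cells, averaged 98.1 ± 1.33 CPM in irradiated and 115 ± 2.78 CPM in non-irradiated libraries (log2 fold change -0.23, adjusted p = 0.00167). Enpp1, which splits extracellular ATP, averaged 13.7 ± 0.456 CPM in irradiated and 17.1 ± 1.24 CPM in non-irradiated libraries (log2 fold change -0.31, adjusted p = 0.0102). The groups did not overlap for any of these 3, as for 5 of the 16 genes in all and for 14.2% of all genes tested. Each of the 3 calls survived all 8 fits with a single library removed. Without irradiated I and II, Adk was still called (adjusted p = 0.029), while Adora2a (0.0555) and Enpp1 (0.0809) were not. With an offset for GC content and length, Adk missed the threshold (log2 fold change -0.24, adjusted p = 0.0609). P2rx7, an ATP-gated channel, averaged 72.0 ± 3.65 CPM in irradiated and 62.4 ± 3.65 CPM in non-irradiated libraries (log2 fold change 0.21, adjusted p = 0.0263), a call that survived 3 of those 8 fits. Without irradiated I and II it was still called by edgeR (adjusted p = 0.0476). DESeq2 called the same 4 genes and also Slc29a1, a nucleoside transporter, at 19.8 ± 0.743 CPM in irradiated and 22.8 ± 2.00 CPM in non-irradiated libraries (log2 fold change -0.21, adjusted p = 0.0745 by edgeR and 0.0438 by DESeq2).

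Of 19 tested genes that induce, restrain or stabilise ICAM-1 or PD-L1, 1 was called by edgeR and 3 by DESeq2, with a median log2 fold change of 0.04. The gene called by edgeR was Il1r1, lower in irradiated cells, the interleukin 1 receptor, with 98.4, 99.6, 94.8 and 101 CPM in irradiated I to IV and 116, 114, 114 and 111 CPM in non-irradiated I to IV (adjusted p = 0.0045 by edgeR). That call survived all 8 fits with a single library removed and held without irradiated I and II (log2 fold change -0.21, adjusted p = 0.0419). Nfkb1, an NF-kB subunit, was at 333 ± 10.0 CPM in irradiated and 311 ± 2.51 CPM in non-irradiated libraries (log2 fold change 0.10, adjusted p = 0.0955). Irf1, the interferon regulatory factor that induces PD-L1, was at 156 ± 1.63 CPM in irradiated and 143 ± 6.60 CPM in non-irradiated libraries (log2 fold change 0.12, adjusted p = 0.0863), and Jak1, a kinase of interferon receptors, at 389 ± 6.70 CPM in irradiated and 372 ± 7.37 CPM in non-irradiated libraries (log2 fold change 0.06, adjusted p = 0.271). For these 3 the groups did not overlap, as for 5 of the 19 genes in all and for 14.2% of all genes tested. None of the 3 was called by edgeR, while DESeq2 called Irf1 (adjusted p = 0.0395) and Nfkb1 (adjusted p = 0.0336) higher.

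**Figure D4:**
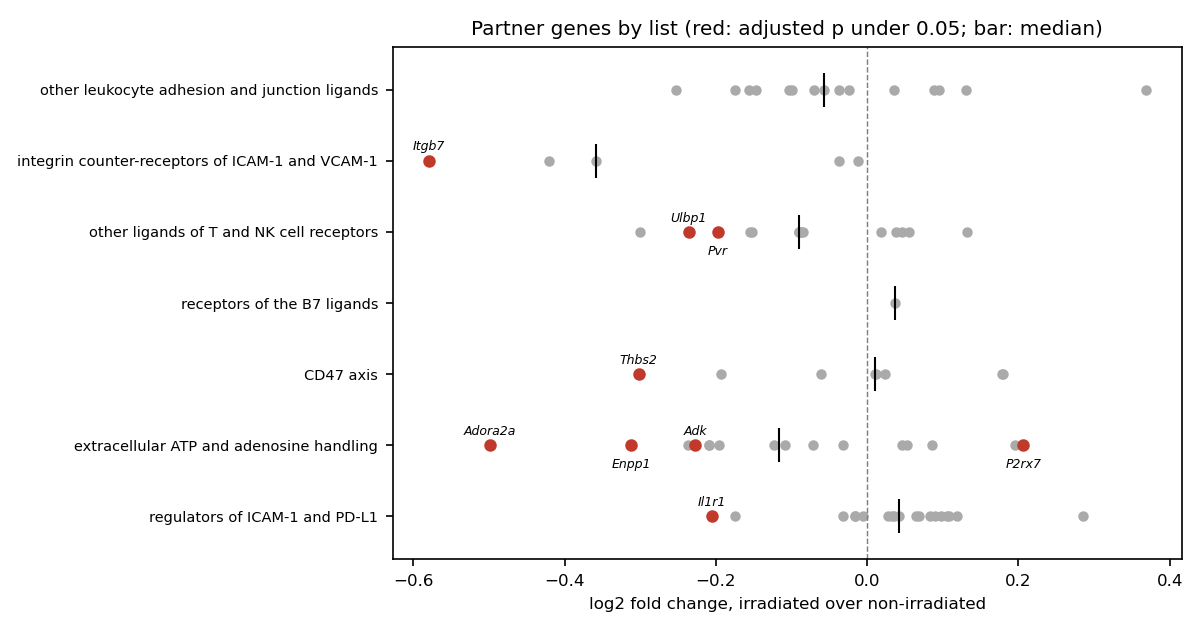
Log2 fold change of irradiated over non-irradiated libraries for the 79 tested partner genes in 7 lists (points are genes, red and named where the adjusted p was under 0.05, bars are list medians). The 8 genes called lower include Adora2a at -0.50 and Itgb7 at -0.58, and P2rx7 at 0.21 is the 1 called higher.

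Patterns over the 8 libraries were compared by Pearson correlation of log2 CPM among 10347 tested genes with at least 5 CPM on average. These correlations share the libraries and the group difference and are given as descriptions. Closest to Icam1 were Arhgap24, Acad9 and Arhgef28, each with r = 0.97, closest to Vcam1 were Smc4, Hif1a and Srsf7 with r = 0.98, and closest to Cd274 were Dus1l (0.96), Smim13 (0.95) and Pogk (0.93). For Cd80, added after its values were seen, they were Pidd1, Ddit4l and Pik3r3, each with r = 0.98. All 3 were called higher by edgeR, with log2 fold changes of 0.36 (adjusted p = 0.00275), 0.58 (adjusted p = 0.000164) and 0.42 (adjusted p = 0.000174). Of the other correlates, Arhgap24 (0.24, adjusted p = 0.00794) and Arhgef28 (0.41, adjusted p = 0.00386) were called higher and Smc4 (-0.29, adjusted p = 0.0171) lower. The rest were not called. Genes picked by likeness over the same libraries share the group difference, so their calls are no separate result.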

How the data were processed

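Raw read counts per Ensembl gene were deposited by the authors, 1 file per library. The submitters' processing notes name the mm10 build, featureCounts (1.5.0-p1), STAR (2.5.2a) and bcl2fastq (2.20.0.422). Strand setting, annotation release and handling of multi-mapping reads are not given in these sources. GENCODE M21 (GRCm38, with the coordinates of mm10) named 55480 of 55573 identifiers.

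The test was edgeR 4.0.16 under R 4.3.3, with filterByExpr at a minimum count of 10, TMM factors and group as sole term over all 8 libraries. The SE and 95% interval came from the fold change and F statistic. TPM used exon-union lengths without TMM factors. Promoter windows came from RefSeq for 8 of the 10 members, and the motifs were chosen with those sequences in view. The limit of 3 counts behind a count of 0 covers counting error only. The edgeR step was also run on simulated counts drawn independently for each library. Such counts hold no likeness between libraries of a group, so that run cannot show whether the p-values hold in these data. Libraries of 1 group differed in every pair by more than counting noise (chi-square over degrees of freedom of 5.14 or more). The irradiated libraries fell into pairs, with 5.52 between I and II and 5.14 between III and IV. Across these pairs the value was 16.1 to 27.8, and between non-irradiated libraries it was 5.33 to 13.9. These values include the abundant mitochondrial rRNA genes, in which irradiated I and II stood apart from III and IV. They were not computed without those genes, so the pairs are no separate sign of a wider split.

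The members, lists, tests and alternatives were chosen with earlier results of these data known. All members were named. From each partner list the called genes, the 3 tested genes with the smallest p and the further one with the highest CPM were named, and marker genes and the correlates of Cd80 were named in addition. Alternatives used RLE or upper-quartile factors, DESeq2 1.42.0, limma 3.58.1 (voom), other filters, a threshold of 0.01, a replicate block, an offset for GC content and length, and fewer libraries.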

Additional observations from a re-analysis of the deposited data

Results flagged for a closer look

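Among 72 groups of 4 libraries examined over the named genes, 2 held a library apart from the rest, where chance gives about 1 in 20. Cd47 had 124 CPM in non-irradiated I, against 115 to 116 CPM in the other 3 non-irradiated libraries. Itgb2 had 6.76 CPM in non-irradiated III, against 5.08 to 5.22 CPM in the other 3. Without non-irradiated I the log2 fold change of Cd47 was -0.08 (adjusted p = 0.347 by edgeR).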

How the results depend on the processing

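Over 18 alternatives, Cd80 (log2 fold change 0.46 to 0.59) and Icam1 (0.42 to 0.53) kept their direction and their call, and no member's direction reversed. Nt5e (-0.69 to -0.52) lost its call at the threshold of 0.01 alone, and Cd276 lost its call in 9 alternatives. Members called higher numbered 2 in every setting. Members called lower numbered 0 at the threshold of 0.01, 1 without irradiated I and II, and 1 to 2 when 1 library was left out. Over all genes, 140 were higher and 296 lower at the threshold of 0.01, 648 were higher without the low-count filter, and 295 were lower without irradiated I and II. With 1 library left out, 221 to 402 genes were higher and 415 to 611 lower, and the count of higher genes dropped by over 1.5 times without irradiated III (234), irradiated IV (221) or non-irradiated I (257), that of lower genes without irradiated IV (415). Without the low-count filter 0 members were left out, against 3. With the longest transcript as length, Icam1 ranked 5 and Cd274 ranked 6 in non-irradiated libraries.

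The numerals pair no samples by the labels. Deviations of same-numbered libraries correlated with r = 0.02, -0.03, 0.27 and 0.15, and not every library correlated best with its own number. With a replicate block, 550 genes were higher and 802 lower, and no member's call changed. Depth limits Nt5e, with 647 counts over 8 libraries, and leaves Pdcd1lg2, Cd86 and Entpd1 untested.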
